A study of Mus musculus with 6 samples.

Results

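Microglia and macrophage genes were followed in S-phase cells of the embryonic mouse cortex sorted by a reporter of neuron-producing progenitors. The set held 31 named genes of 19988 gene symbols on the array, and a probe belonged to it when its accession led in RefSeq to one of these symbols. The cells came from the dorsal telencephalon of C57BL/6 embryos at embryonic day 14.5. All of them, in both groups, were heterozygous for GFP knocked into the Tis21 (Btg2) locus, with a homozygous knock-in father and a wild-type mother. After dissociation a vital dye for DNA gated S-phase cells, whose DNA was partly replicated, and these were split by GFP signal into a Tis21-GFP positive and a Tis21-GFP negative group, so no surface marker was used. Each replicate pooled 30 hemispheres of 15 embryos and about 200000 cells, from at least 3 pregnant females, and the 3 replicates are those the authors judged best among 4 independent experiments, by a criterion not given in the sources used here. There were 3 one-colour arrays of positive and 3 of negative cells, each made from 50 ng of total RNA.

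Microglia are the resident macrophages of the brain. They descend from yolk sac progenitors, settle in the neural tube before blood vessels are complete, and depend on the receptor Csf1r and the transcription factors Spi1 (PU.1) and Irf8. They sense their surroundings through purinergic, chemokine, Fc, Toll-like and lipid receptors, several of which signal through the small adaptors Tyrobp (DAP12) and Fcer1g. They do not arise from the neural progenitors of the cortex.

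Signal is given below as the log2 processed intensity of a probe minus its array's 75th percentile, so 0 is that percentile itself. Such levels can be set against each other between arrays, not between genes. Differences are positive minus negative, with the moderated SE of limma, and a gene was called when its adjusted p (Benjamini-Hochberg over 13136 tested genes) was under 0.05. The 10 fixed markers of the dorsal telencephalon were well above background on all 6 arrays, and Btg2 was higher in positive cells by 0.77 ± 0.17 (adjusted p = 0.0139). Of all tested genes, 1716 (13.1%) were lower and 1687 (12.8%) higher in positive cells, and their median difference was 0.12. That median ran from -0.06 to 0.30 over the other scalings, and higher genes made up 49.6% of calls, against 29.1% to 65.8% over those scalings.

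Of the 31 members, 30 had a probe named through RefSeq, with 39 probes in all, and Cd68 had none. A member was tested if its probe was well above background throughout 1 group or both, that is on each of its 3 arrays, and 23 members were. Not tested were Lyz2, Fcgr1, Cd33, Tlr4, Ptprc, Cd53 and Spi1. Of the 23, 16 were well above background on every array of both groups, and 7 passed through the negative arrays alone (Laptm5, Fcgr3, Cd14, Mrc1, Cx3cr1, P2ry12 and Runx1), for which a lower positive level follows in part from the filter. Over the 30 members with a probe, 23 were well above background on the 3 negative arrays, where 64.8% of all 19988 genes were, and 16 of 30 on the 3 positive arrays, where 62.2% of all genes were. The test called 20 members lower and 0 higher in positive cells, where 13.1% of all tested genes were lower and 12.8% higher. At an unadjusted p under 0.05, 1 (Tlr7) was higher. Among the 16 that were bright in both groups, 13 were lower, where 10.7% of all genes bright on all 6 arrays were. Without any filter, over the 30 members with a probe, the median difference was -1.84 against 0.08 for 19988 genes, 28 of 30 lay below 0 (39.4% of all genes did), and 18 were lower (6.89% of all genes) and 0 higher (4.48%). Among these 18, Cd53 was not well above background on any array.

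**Figure D1:**
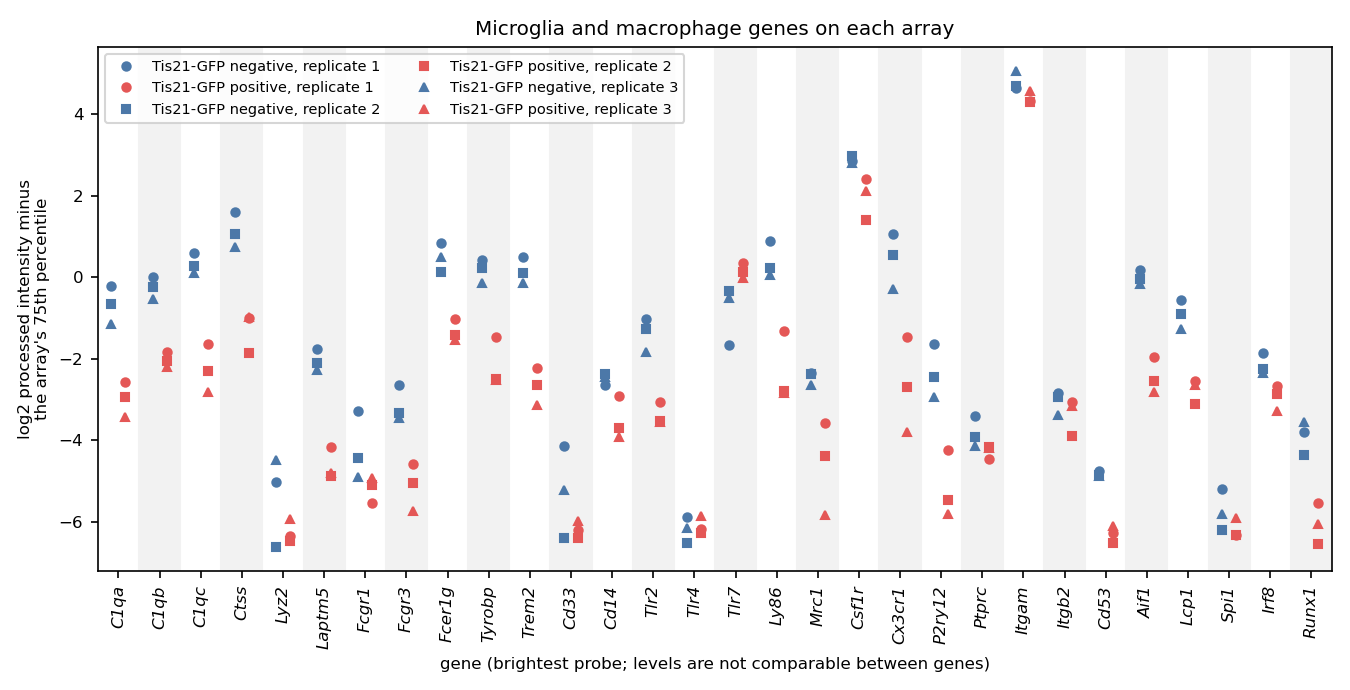
Log2 processed intensity minus the array's 75th percentile (vertical axis) for the brightest probe of each of 30 members (horizontal axis), 1 point per array, with blue for Tis21-GFP negative and red for Tis21-GFP positive cells and the marker shape for the replicate number. For most genes the 3 blue points stand above the 3 red ones, as for Trem2 (-0.12 to 0.51 against -3.13 to -2.21), whereas Tlr7 shows the reverse and Tlr4 and Spi1 overlap near the bottom.

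As a description, the 250 bases before the members' RefSeq transcription starts (build GRCm38.p6) were searched on both strands for sites of the myeloid factors among the members. The core of the Spi1 site, GAGGAA, was in 16 of 28 windows (57.1%), which belonged to 15 of the 23 members with a window, against 23.3% of all 32851 windows. Among members called lower it was in 10 of 20 windows (50%). The longer form GAGGAAGT was in 1 window (3.57%, all windows 2.44%), the composite Spi1 and Irf8 pattern GGAANNGAA in 1 (3.57%, all windows 6.99%) and the Runx1 pattern TGTGGT in 5 (17.9%, all windows 14.0%). Among members called lower, GAGGAAGT and GGAANNGAA were in 1 of 20 windows each and TGTGGT in 2 of 20 (10%). GAGGAA is contained in GAGGAAGT. Some genes have several windows, which can overlap, and a match is a string of letters, not a measured binding event. Shown are the windows of the 3 called members with the most core matches, ties taken in alphabetical order, 5′ to 3′ on the gene's strand with each core match or its reverse complement in capitals. The window of Mrc1, the mannose receptor of tissue macrophages, held 3 matches, all on the opposite strand, and the nearest ended 29 bases before the start. Aif1, which encodes the microglial actin-binding protein Iba1, and C1qb, a chain of complement C1q, held 1 each, the former 1 base and the latter 24 bases from the start.
Mrc1 (chr2:14229164-14229413, plus strand): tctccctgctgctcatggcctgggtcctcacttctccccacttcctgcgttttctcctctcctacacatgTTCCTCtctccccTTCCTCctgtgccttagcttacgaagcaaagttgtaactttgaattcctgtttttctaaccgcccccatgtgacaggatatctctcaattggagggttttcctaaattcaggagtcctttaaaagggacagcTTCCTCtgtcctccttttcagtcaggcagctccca
Aif1 (chr17:35176053-35176302, minus strand): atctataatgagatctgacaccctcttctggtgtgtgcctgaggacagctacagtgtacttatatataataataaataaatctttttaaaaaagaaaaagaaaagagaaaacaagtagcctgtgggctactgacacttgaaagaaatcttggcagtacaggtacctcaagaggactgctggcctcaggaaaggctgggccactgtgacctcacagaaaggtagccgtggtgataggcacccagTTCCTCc
C1qb (chr4:136886201-136886450, minus strand): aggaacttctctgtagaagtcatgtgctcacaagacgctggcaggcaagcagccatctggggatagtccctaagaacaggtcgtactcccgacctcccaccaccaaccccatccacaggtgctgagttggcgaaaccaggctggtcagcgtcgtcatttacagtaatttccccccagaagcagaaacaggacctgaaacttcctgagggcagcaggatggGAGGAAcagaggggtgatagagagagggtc

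The complement C1q genes were lower in positive cells. C1qa, C1qb and C1qc encode the 3 chains of the molecule that opens the classical complement pathway, and brain macrophages are their main source. C1qa stood at -0.20, -0.65 and -1.15 on the negative arrays and -2.55, -2.94 and -3.42 on the positive arrays. C1qb stood at 0.01, -0.24 and -0.53 on the negative arrays and -1.84, -2.06 and -2.19 on the positive arrays. C1qc stood at 0.61, 0.27 and 0.10 on the negative arrays and -1.62, -2.29 and -2.81 on the positive arrays. For each chain every positive array was below every negative array, yet all 3 probes stayed well above background on all 3 positive arrays. C1qa fell by 2.31 ± 0.29 (SE, n = 3 per group, adjusted p = 0.00108), C1qb fell by 1.77 ± 0.18 (adjusted p = 0.00045) and C1qc fell by 2.57 ± 0.29 (adjusted p = 0.000728), which are falls of 4.95-fold, 3.42-fold and 5.95-fold.

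Of the lysosomal members, Ctss, the cathepsin of antigen-processing cells, stood at 1.61, 1.07 and 0.74 on the negative arrays and -1.01, -1.85 and -0.96 on the positive arrays. It fell by 2.42 ± 0.30 (adjusted p = 0.00103), with signal well above background in both groups. Laptm5, a lysosomal membrane protein of blood cells, stood at -1.77, -2.09 and -2.27 on the negative arrays and -4.16, -4.87 and -4.79 on the positive arrays. It was well above background on no positive array, so its fall can be given only as at least 4.11-fold (adjusted p = 0.000301), the negative mean against the positive mean with each array raised to the lowest signal that counted as well above background there. Lyz2, lysozyme of macrophages and granulocytes, was not well above background on any array.

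The adaptors and the receptors that use them were lower as well. Trem2, a lipid-sensing receptor of microglia, stood at 0.51, 0.11 and -0.12 on the negative arrays and -2.21, -2.64 and -3.13 on the positive arrays. Tyrobp, the adaptor through which Trem2 signals, stood at 0.43, 0.24 and -0.13 on the negative arrays and -1.46, -2.49 and -2.52 on the positive arrays. Fcer1g, the common chain of activating Fc receptors, stood at 0.85, 0.14 and 0.51 on the negative arrays and -1.02, -1.40 and -1.53 on the positive arrays. All 3 were well above background on every array, and in none did the groups overlap. Trem2 fell by 2.83 ± 0.26 (adjusted p = 0.00034), Tyrobp fell by 2.34 ± 0.30 (adjusted p = 0.00117) and Fcer1g fell by 1.82 ± 0.22 (adjusted p = 0.000889). Fcgr3, an activating receptor for immunoglobulin G, was at least 1.94-fold lower (adjusted p = 0.00346), from -2.63, -3.31 and -3.44 on the negative arrays to a signal below that limit on every positive array. Its call was lost with normexp background (-0.26, adjusted p = 0.202). Fcgr1, the high-affinity receptor of the same family, was well above background on 1 negative array and on no positive array. Cd33, an inhibitory sialic acid receptor, was not well above background on any array.

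The surface receptors that mark the microglial lineage were lower to very different degrees. Cx3cr1, the receptor for the neuronal chemokine fractalkine, stood at 1.06, 0.55 and -0.28 on the negative arrays and -1.46, -2.68 and -3.80 on the positive arrays. P2ry12, a purinergic receptor that steers microglial processes, stood at -1.64, -2.45 and -2.92 on the negative arrays and -4.22, -5.45 and -5.80 on the positive arrays. In both genes the groups did not overlap, and replicate 1 was the highest array in each group. Cx3cr1 fell by 3.09 ± 0.57 (adjusted p = 0.0062) and was well above background on 2 of 3 positive arrays. P2ry12 was well above background on no positive array and was at least 3.36-fold lower (adjusted p = 0.00322). Csf1r, the receptor for the macrophage growth factors Csf1 and Il34, stood at 2.87, 2.99 and 2.81 on the negative arrays and 2.41, 1.40 and 2.13 on the positive arrays on its brightest probe. It fell by 0.90 ± 0.25 (adjusted p = 0.0307). The Csf1r call was lost when any one of the negative arrays was left out (adjusted p = 0.0917, 0.0912 and 0.0767 without replicates 1, 2 and 3), without a filter (0.0765) and without both arrays of replicate number 1 (0.0542).

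The probes of Csf1r did not give the same difference. In a fit over single probes with no filter, the probe A_52_P602091 ran from -1.04 to -0.86 on the negative arrays and from -2.42 to -2.02 on the positive arrays, a difference of -1.30 ± 0.17 (adjusted p = 0.0048). A second probe, A_55_P2025073, stood at 0.41, 0.44 and 0.46 on the negative arrays and 0.35, -0.44 and 0.57 on the positive arrays, with a difference of -0.28 ± 0.27 (adjusted p = 0.596) and overlapping groups. The probe used above, A_55_P2025078, gave -0.90 ± 0.27 (adjusted p = 0.0786) in that fit. All 3 were well above background on all 6 arrays.

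**Figure D2:**
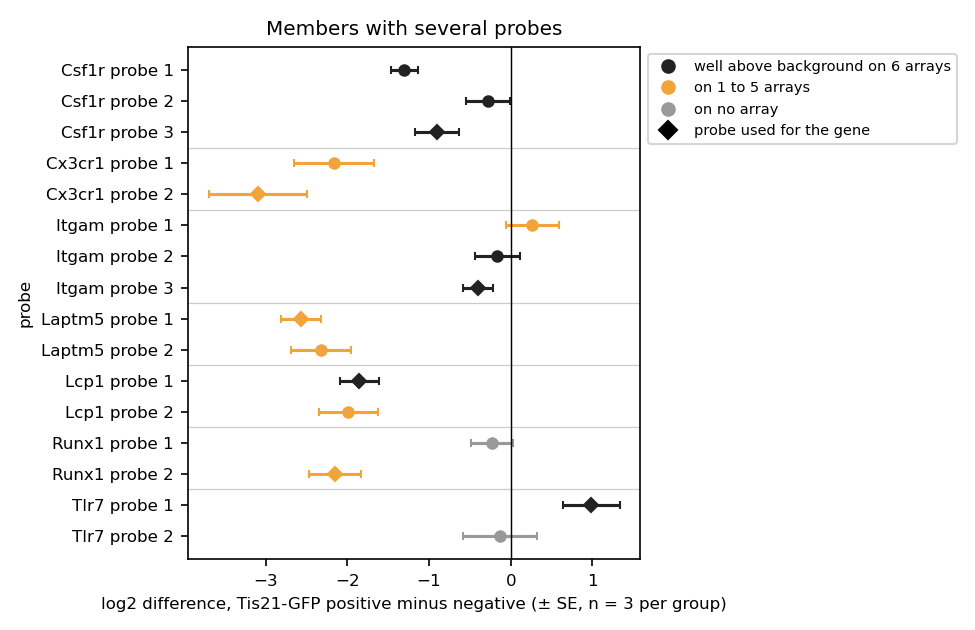
Log2 difference, positive minus negative, with SE (n = 3 per group) for every probe of the 7 members that had several, fitted over single probes with no filter, where diamonds mark the probe that stood for the gene and the colour gives the number of arrays with signal well above background. The probes of Laptm5, of Lcp1 and of Cx3cr1 lie on the same side of 0, while those of Csf1r run from -1.30 to -0.28 and those of Itgam and Tlr7 fall on both sides. The Itgam probe above 0 and the Tlr7 probe below 0 were not well above background on all 6 arrays.

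Receptors that recognise microbial and damage signals were mostly lower, with Tlr7 as the exception. Tlr2, the Toll-like receptor for bacterial lipoproteins, stood at -1.02, -1.25 and -1.83 on the negative arrays and -3.05, -3.52 and -3.54 on the positive arrays and fell by 2.00 ± 0.24 (adjusted p = 0.000878). Ly86, the partner of a Toll-like receptor homologue on myeloid and B cells, stood at 0.90, 0.24 and 0.05 on the negative arrays and -1.32, -2.78 and -2.84 on the positive arrays and fell by 2.71 ± 0.41 (adjusted p = 0.00266). Mrc1 stood at -2.35, -2.38 and -2.63 on the negative arrays and -3.56, -4.39 and -5.83 on the positive arrays. Its positive arrays spread widely (SD 1.15, n = 3), only replicate 1 of them was well above background, and it fell by 2.14 ± 0.49 (adjusted p = 0.0157). Cd14, the co-receptor for lipopolysaccharide, stood at -2.63, -2.37 and -2.44 on the negative arrays and -2.90, -3.70 and -3.90 on the positive arrays. Its difference of -1.02 ± 0.25 (adjusted p = 0.0213) was the smallest of the called members of this role. The call of Mrc1 was lost in 4 of 17 alternatives (adjusted p up to 0.0613), among them those without negative replicate 1 and without negative replicate 2, and that of Cd14 in 8 of 17 (adjusted p up to 0.119), among them those without each of the negative arrays and without positive replicate 2.

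Tlr7, the endosomal receptor for single-stranded RNA, was the only tested member above 0. It stood at -1.65, -0.33 and -0.51 on the negative arrays and 0.35, 0.13 and -0.01 on the positive arrays, so every positive array was above every negative array. The difference of 0.99 ± 0.32 did not pass (adjusted p = 0.0573). It passed in 5 of 18 alternatives, among them normexp background (0.83, adjusted p = 0.00973) and the fit without negative replicate 2 (1.24, adjusted p = 0.0482). Negative replicate 1 was far below the other negative arrays, and without it the difference was 0.58 (adjusted p = 0.0749). The second Tlr7 probe, A_55_P2129047, was not well above background on any array and had a difference of -0.13 ± 0.45. Tlr4, the receptor for lipopolysaccharide, was likewise not well above background on any array.

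Membrane and cytoskeletal genes shared with other leukocytes were split. Aif1 stood at 0.18, -0.04 and -0.15 on the negative arrays and -1.96, -2.55 and -2.80 on the positive arrays and fell by 2.44 ± 0.22 (adjusted p = 0.00034). Lcp1, the leukocyte plastin that bundles actin, stood at -0.56, -0.90 and -1.27 on the negative arrays and -2.55, -3.10 and -2.64 on the positive arrays and fell by 1.85 ± 0.22 (adjusted p = 0.000929). Itgb2, the common beta chain of leukocyte integrins, stood at -2.83, -2.93 and -3.38 on the negative arrays and -3.06, -3.90 and -3.15 on the positive arrays. Its groups overlapped, and the difference of -0.32 ± 0.25 did not pass (adjusted p = 0.358). Itgam, the integrin alpha chain that pairs with Itgb2 as CD11b, stood at 4.66, 4.70 and 5.07 on the negative arrays and 4.34, 4.30 and 4.58 on the positive arrays on its brightest probe. The groups did not overlap, but the difference of -0.40 ± 0.16 did not pass (adjusted p = 0.104). It passed with quantile normalization (-0.67, adjusted p = 0.0289), the authors' processed values (-0.68, adjusted p = 0.0289), normexp background (-0.50) and a variance trend with a robust fit (-0.40), and stood at -0.22 with median centring. The other Itgam probes gave -0.17 ± 0.27 and 0.26 ± 0.33, with overlapping groups in both. The latter was well above background on only 1 negative and 2 positive arrays, the former on all 6.

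The pan-leukocyte genes Ptprc and Cd53 were near the limit of detection. Ptprc, which encodes CD45, stood at -3.41, -3.92 and -4.14 on the negative arrays and -4.45, -4.17 and -4.19 on the positive arrays, and was well above background on 2 negative arrays and 1 positive array. Cd53, a tetraspanin of blood cells, stood at -4.74, -4.86 and -4.87 on the negative arrays and -6.27, -6.53 and -6.09 on the positive arrays. The groups did not overlap, but it was not well above background on any array, so the gap is not a measured change.

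Of the transcription factors, Irf8, an interferon regulatory factor that macrophages need, stood at -1.84, -2.24 and -2.35 on the negative arrays and -2.66, -2.85 and -3.28 on the positive arrays. It fell by 0.78 ± 0.21 (adjusted p = 0.0271), a call lost in 10 of 18 alternatives (adjusted p up to 0.102), among them those without negative replicate 1 or 2 and without positive replicate 2 or 3. Runx1, which blood stem cells and early microglia express, stood at -3.79, -4.36 and -3.54 on the negative arrays and -5.54, -6.55 and -6.05 on the positive arrays on the probe that passed. It was at least 1.14-fold lower (adjusted p = 0.00162), a bound close to 1 because its negative signal was itself dim, and the call was lost with normexp background (-0.29, adjusted p = 0.163). Its second probe was not well above background on any array. Spi1, the master regulator of the myeloid lineage, stood at -5.20, -6.19 and -5.81 on the negative arrays and -6.31, -6.31 and -5.90 on the positive arrays and was not well above background on any array, so its level could not be compared.

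**Figure D3:**
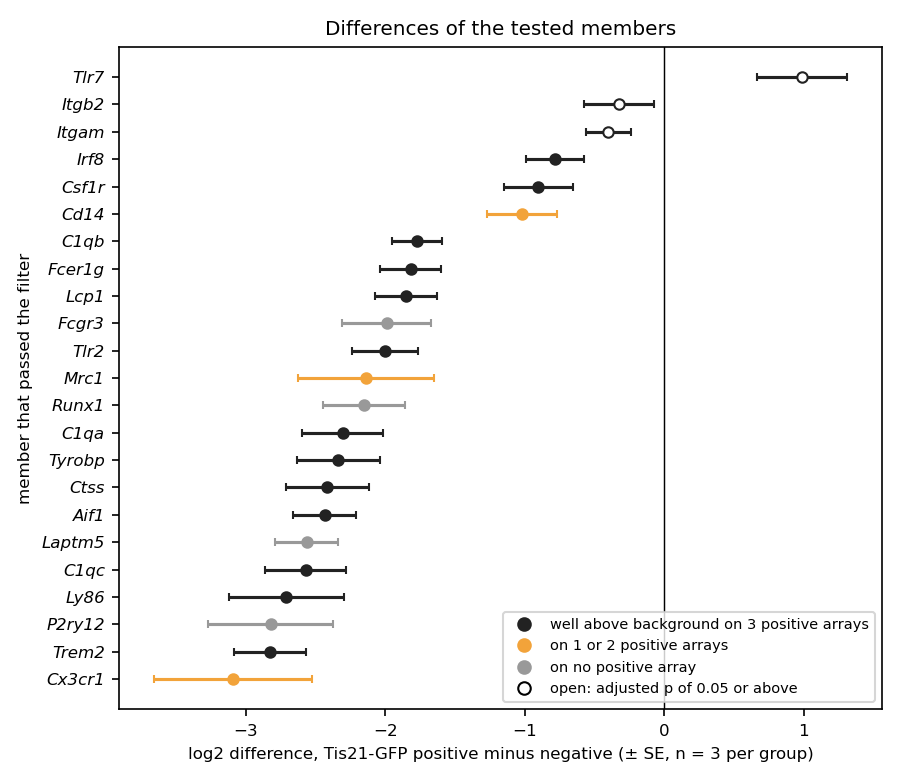
Log2 difference, positive minus negative, with SE (n = 3 per group) for the 23 members that passed the filter, in order of size, with open circles for an adjusted p of 0.05 or above and the colour for the number of positive arrays on which the probe was well above background. Called members run from -3.09 for Cx3cr1 to -0.78 for Irf8, and Tlr7 is alone to the right of 0.

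Across roles, the tested members that were lower numbered 5 of 5 complement and lysosomal genes, 4 of 4 Fc receptor and adaptor genes, 4 of 5 pattern recognition genes, 3 of 3 lineage receptors, 2 of 4 membrane and cytoskeletal genes and 2 of 2 transcription factors. Of all tested genes 13.1% were lower. The tallies leave out untested members such as Spi1 and include the 7 tested only for their negative signal, among them Cx3cr1, P2ry12 and Runx1. The fitted fall was at least 2-fold in 18 of the 23, against 7.49% of all tested genes, but these 18 include Fcgr3 and Runx1, whose bounds of 1.94-fold and 1.14-fold do not reach it. They also include Cd14, Mrc1 and Cx3cr1, well above background on only 1 or 2 positive arrays, for which no bound was computed. For 21 of the 23 the groups did not overlap with the positive arrays lower, against 18.6%, and both counts include the 7 members that were tested only for their negative signal. Over all 30 members with a probe, 24 did not overlap in this direction, against 13.9%. The fitted falls ran from 1.72-fold for Irf8 to 8.53-fold for Cx3cr1. With normexp background and an offset of 50, which compresses dim signals, 14 of the 20 called falls became smaller by over 1.5 times. There they ran from -1.89 to -0.26, 16 of the 20 were called, and the bounds given for Laptm5, Fcgr3 and P2ry12 exceeded the sizes fitted there (-0.76, -0.26 and -0.60). In sorted bulk RNA, fewer macrophages and less of these RNAs per macrophage cannot be told apart.

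The members varied among replicates in the same way in both sorts. Replicate 1 was the highest negative array for 18 of the 23 tested members (27.2% of all tested genes) and the highest positive array for 21 (28.5%), and it was the highest in both groups for 17, where 10.2% of all tested genes showed that pattern. The median deviation of the members from their group mean was 0.28, -0.04 and -0.28 on negative replicates 1, 2 and 3 and 0.45, -0.11 and -0.35 on the positive ones, while that of all tested genes stayed between -0.06 and 0.05. Differences within same-numbered arrays were often more even than the levels. For C1qa they were -2.35, -2.30 and -2.27 in replicates 1, 2 and 3, and for Trem2 -2.72, -2.75 and -3.01. For P2ry12 they were -2.58, -3.01 and -2.88, although its negative levels alone spanned more than 1 log2 unit. The spread of the pairwise differences was smaller than unpaired groups would give in 19 of the 23 tested members (82.6%), against 64.5% of all tested genes. All 3 pairwise differences lay below 0 in 21 of the 23 (91.3%), against 25.0%, and 7 of the 23 had been tested only for their negative signal. With the replicate number as a block, the same 20 members were lower, and the SE of C1qa went from 0.29 to 0.12.

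**Figure D4:**
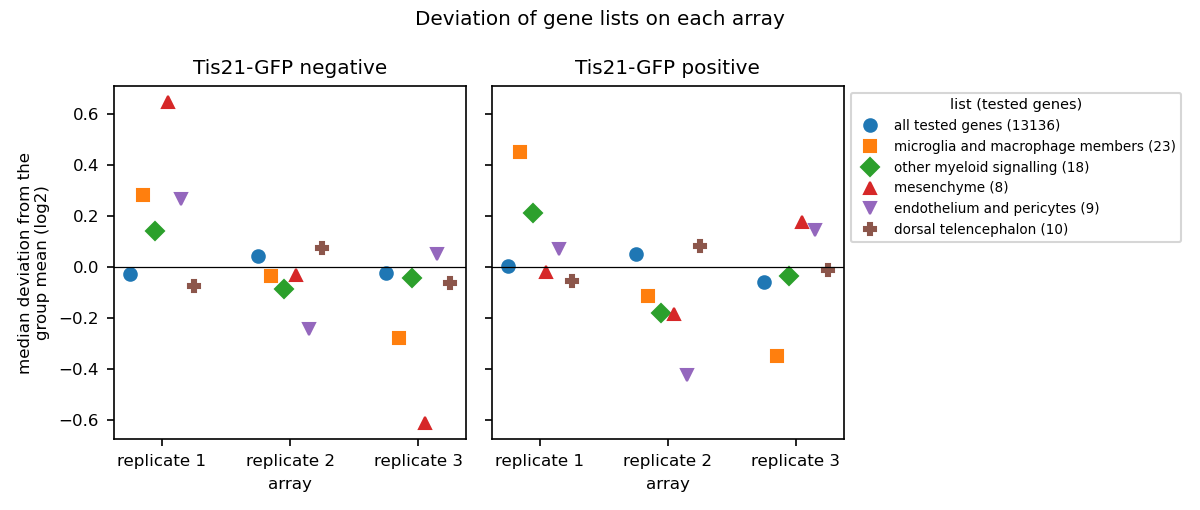
Median deviation from the group mean in log2 units (vertical axis) of the tested genes of 6 lists on each array (horizontal axis), with Tis21-GFP negative arrays on the left and positive arrays on the right. The members are highest on replicate 1 and lowest on replicate 3 in both panels (0.28 and -0.28, then 0.45 and -0.35), whereas the mesenchymal genes show this on the negative arrays (0.65 and -0.61) and not on the positive ones (-0.02 and 0.18).

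Genes of the same cells that are no members were split between lower and not called. Of 90 such myeloid genes in 4 lists, 88 had a probe and 56 were tested, of which 32 were lower and 1 higher. For this and the later lists, the shares over all tested genes were 13.1% lower and 12.8% higher. Only 34 of the 56 were well above background on all 3 positive arrays, and the rest passed through the negative arrays alone. For the rest, as for such genes of the later lists, a lower positive level follows in part from the filter. Where all 6 arrays were required, 14 of 34 were lower, against 1378 of 12249 genes. Of 13 tested genes of the microglial signature, 10 of them well above background on all 3 positive arrays, 6 were lower and 7 did not pass. Olfml3 fell by 1.49 ± 0.22 (adjusted p = 0.0023), and Mertk, a receptor for the engulfment of dying cells, was at least 1.91-fold lower (adjusted p = 0.000259). Tmem119, a marker of parenchymal microglia named after its value was seen, fell by 1.15 ± 0.26. Of those that did not pass, also named after their values were seen, Siglech differed by -0.04 ± 0.30, Csf3r by 0.13 ± 0.15, Selplg by -0.13 ± 0.24, Cd84 by -0.19 ± 0.13 and Lag3 by -0.24 ± 0.25. Further below 0, but also short of the threshold, were Fcrls (-1.77 ± 0.57, adjusted p = 0.0549) and Slc2a5 (-0.77 ± 0.29, adjusted p = 0.0816). For Fcrls every positive array was below every negative array. The summed signal of this list, in units of the 75th percentile, was 319.6 to 449 on the negative and 304 to 489.6 on the positive arrays, and most of it came from the Siglech and Csf3r probes. Of 18 tested myeloid signalling genes, 14 were lower. Only 8 of the 18 were well above background on all 3 positive arrays, and the rest passed through the negative arrays alone. Vav1, an exchange factor for Rac, fell by 3.03 ± 0.19 (adjusted p = 0.000158), Nckap1l, the blood-cell subunit of the WAVE complex, was at least 3.95-fold lower, and Apbb1ip, an integrin activator, at least 1.19-fold lower, a call lost with normexp background (-0.22).

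Of 18 tested innate effector genes, 13 of them well above background on all 3 positive arrays, 9 were lower. Cyba, a subunit of the phagocyte oxidase, fell 2.83-fold (adjusted p = 0.000381), the cathepsin gene Ctsh fell by 1.62 ± 0.17, and Unc93b1, which carries endosomal Toll-like receptors to their compartment, fell by 1.56 ± 0.17. Of 7 tested genes of perivascular and meningeal macrophages and monocytes, 3 were lower and 1 higher. Only 3 of the 7 were well above background on all 3 positive arrays. The scavenger receptor gene Stab1 fell by 2.28 ± 0.29 (adjusted p = 0.00116) and the transcription factor gene Maf fell by 1.25 ± 0.17 (adjusted p = 0.00136). Of the 19 genes of this group with a probe, 8 were not well above background on any array, among them Cd163, Lyve1, Ccr2 and Timd4. Others, named after their values were seen, were detected: Pf4 fell by 2.20 ± 0.59 (adjusted p = 0.0295), and F13a1 (-1.40 ± 0.55), Clec4n (-1.06 ± 0.39, on no positive array) and Marco (-0.15 ± 0.20) did not pass.

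**Figure D5:**
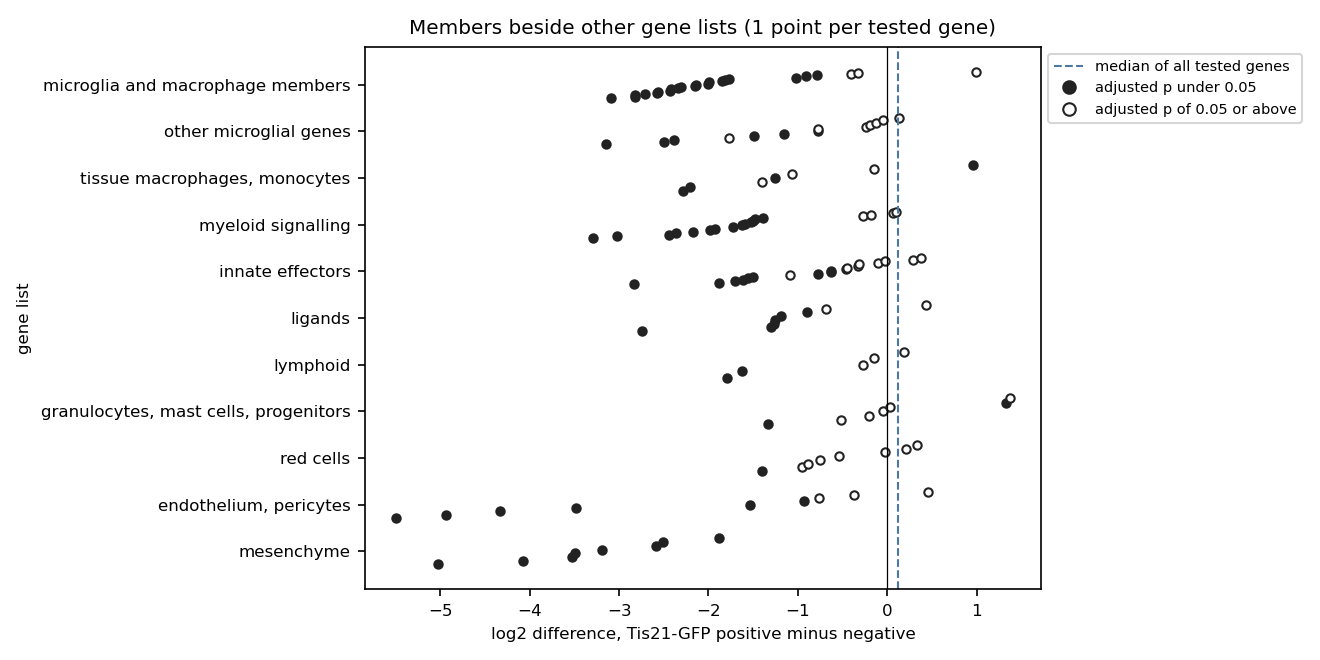
Log2 difference, positive minus negative (horizontal axis), of each tested gene of the members and of 10 other lists (vertical axis), filled where the adjusted p was under 0.05, with the median of all tested genes (0.12) as a dashed line. The members and the myeloid signalling genes lie mostly left of -1, the red cell genes lie mostly within 1 of 0, and the mesenchymal genes reach -5.02.

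Other non-neural cells were followed beside the members, since a sort by DNA content and GFP can hold them. Of 12 mesenchymal genes 8 were tested and all 8 were lower, with Col3a1 at least 16.6-fold lower, and Col1a1 fell by 3.50 ± 0.37. Only 2 of the 8 were well above background on all 3 positive arrays. The rest passed through the negative arrays alone, so a lower positive level follows in part from the filter. The summed signal of the mesenchymal genes, in units of the 75th percentile, was 3.71 to 7.91 on the negative arrays and 0.624 to 0.937 on the positive ones. Of 16 endothelial and pericyte genes 9 were tested and 6 were lower, but only 4 of the 9 were well above background on all 3 positive arrays. The pericyte genes Vtn and Rgs5 were at least 22-fold and 7.09-fold lower, and the summed signal was 10.2 to 10.9 against 9.66 to 10.7. Most of that sum came from the probe of Kdr, a receptor for vascular growth factors named after its value was seen. Kdr differed by 0.45 ± 0.14 without passing (adjusted p = 0.053), so the sum does not show the falls of the 6 called genes. Of other endothelial genes, also named after their values were seen, Esam (-1.54 ± 0.19) and Cldn5 (-0.93 ± 0.28) were lower. Flt1 (-0.76 ± 0.39, adjusted p = 0.181) and Pecam1 (-0.38 ± 0.23, adjusted p = 0.252) did not pass. The members' own sum was 49.0 to 53.3 against 26.3 to 32.1, and the Itgam probe, whose difference did not pass, was the largest part of it, while the median difference of the 30 members was -1.84. The part of these cells in the members' differences was not tested. Of 13 red cell genes 8 were tested and 1 was lower (Epor, which fell by 1.40 ± 0.20), and the summed signal was 25.0 to 38.3 against 12.96 to 38.2.

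Many markers of lymphoid cells and granulocytes were at or near background, while others were well above background on every array. Of 14 lymphoid genes, 8 were not well above background on any array, among them Cd3g, Cd3d, Cd8a, Ms4a1 and Ncr1, and of the 5 tested 2 were lower. These were the B cell receptor component Cd79a, at least 3.18-fold lower (adjusted p = 0.000305), and Thy1, which neurons also express and which fell by 1.62 ± 0.34. Lck (-0.28 ± 0.15), Cd3e (-0.15 ± 0.35) and Nkg7 (0.18 ± 0.14), named after their values were seen, did not pass. Each was well above background on every array. The summed signal of the lymphoid list was 5.26 to 6.50 on the negative and 4.65 to 6.15 on the positive arrays. Of 14 genes of granulocytes, mast cells and blood progenitors, 7 were not well above background on any array, among them S100a8, S100a9, Ngp and Mpo. The summed signal of this list was 4.82 to 6.19 against 5.89 to 7.35. The 7 tested were well above background on every array. Elane (-0.20 ± 0.35), Tpsb2 (-0.52 ± 0.18), Camp (-0.05 ± 0.22) and Kit (0.03 ± 0.26), named after their values were seen, did not pass. Neither did Prtn3 (1.37 ± 0.46, adjusted p = 0.0607), whose positive arrays were all above its negative ones. Of the 7 tested, the progenitor gene Cd34, which vessels also express, fell by 1.34 ± 0.38 (adjusted p = 0.0372, lost in 9 of 18 alternatives), and Myb, a transcription factor of proliferating progenitors, rose by 1.32 ± 0.16 (adjusted p = 0.000878). Of the cortical genes, Sox2 fell by 0.76 ± 0.15 and Emx1 rose by 1.12 ± 0.20, and both calls were lost without both arrays of replicate number 1.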

How the data were processed

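Per the file headers, the deposited scanner files hold intensity values made with Agilent Feature Extraction 10.7.1.1 (background-subtracted and detrended within the array) on a design of build mm9. The authors' deposited value table was on a log2 scale, with no step of its making stated in the labels. Its columns correlated with the log2 scanner intensity at 0.999 or above, each had a median of 4.67, and it served as an alternative. Control spots and outlier spots (118 to 191 per array) were left out, 0 non-control spots were saturated, and replicate spots were averaged on the log2 scale. Of 55681 probes, 51.2% to 56.2% per array exceeded background, and 26370 were named by accession, without version, through RefSeq (GRCm38.p6), whose promoter table gave the sequences. Each array's 75th percentile was subtracted, a gene was its brightest passing probe, and the test was the moderated one of limma (version 3.58.1, run in R 4.3.3), with group as its sole term and Benjamini-Hochberg adjustment. On simulated data for this comparison (13128 genes), 90% to 92% of genes changed by 2 log2 units and 62% to 76% of those changed by 1 were called, and 0.108% of unchanged ones. There only 50 genes were changed at each size and direction, and the noise was independent between arrays. The data differ in both respects, so these rates need not hold for them. The 6 arrays lay on 1 slide, 0 pairs held identical values, and their number limits the precision. Arrays of both groups share numbers in the labels, and same-numbered deviations across genes correlated at 0.227, 0.133 and 0.374, against at most 0.0589 between other numbers, so they were read as pairs. Deviations from a group mean sum to 0 over its 3 arrays, which lowers the correlations between other numbers, so this contrast is partly built in. The main fit did not use the pairs. P-values measure the spread between these pools of embryos. The members and gene lists were chosen with earlier results of these data known. All 31 members are named. Of other lists, up to 3 (4 myeloid lists) or 2 called genes with the smallest adjusted p are named, and a few more as chosen after their values were seen. Not every gene this rule picks is reported here. Further alternatives were added after seeing the data: the dimmest passing probe, and leaving out both arrays of replicate number 1. Normexp was run on the median spot signal and local background, with an offset of 50. No protein sequences were used.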

Additional observations from a re-analysis of the deposited data

How the results depend on the processing

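Of the 20 members lower in positive cells, 16 to 20 were lower in each alternative in which all 20 were tested, and 0 reversed. Members called lower numbered 13 of 16 tested when signal well above background on all 6 arrays was required, since 7 were then not tested, and the other myeloid lists gave 14 of 34. The number called higher was 1, namely Tlr7, with normexp background, median centring, the filter on all 6 arrays and the variance trend with a robust fit. Leaving out 1 array gave 16 to 20 lower and 0 to 1 higher members, 1174 to 1709 lower and 761 to 1735 higher genes in all, and 25 to 36 lower genes and 1 higher gene of the other myeloid lists. Higher genes in all numbered 761 without negative replicate 1, 779 without negative replicate 3 and 1056 without positive replicate 1. They numbered 896 without a filter, 1120 in the authors' values and 933 when the percentile came from commonly detected probes. Without both arrays of replicate number 1, 1041 genes were lower and 458 higher, and 0 of the other myeloid genes were higher. With the replicate block, 20 members, 1966 genes and 34 other myeloid genes were lower, and the block changed no call among the members. Dim members are limited by signal over background.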

Other observations

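The ligand list held 11 genes, for ligands of receptors among the members and also of receptors that are no members. Of these 8 were tested, and 6 were lower in positive cells and 0 higher. Well above background on all 3 positive arrays were 6 of the 8, and the rest passed through the negative arrays alone. Cx3cl1, the fractalkine bound by Cx3cr1, stood at 0.77, 0.92 and 1.03 on the negative arrays and -1.61, -1.73 and -2.17 on the positive arrays and fell by 2.74 ± 0.18 (limma, SE, n = 3 per group, adjusted p = 0.000158). Apoe, a lipid carrier that Trem2 binds and that radial glia also make, stood at 3.54, 3.40 and 3.34 on the negative arrays and 2.27, 2.13 and 2.09 on the positive arrays and fell by 1.27 ± 0.13 (adjusted p = 0.000504). The remaining lower genes, chosen after their values were seen, were Csf1 (-1.30 ± 0.19), Gas6 (-1.26 ± 0.13), Pros1 (-0.90 ± 0.18) and Icam2 (-1.19 ± 0.25). Il34, the other ligand of Csf1r, differed by -0.69 ± 0.35, short of the threshold (adjusted p = 0.181). Hmgb1, a nuclear protein that Toll-like receptors sense outside cells, was above its negative arrays on every positive array and differed by 0.43 ± 0.16, which did not pass (adjusted p = 0.0865). The summed signal of the list was 85.5 to 114 on the negative and 111 to 122 on the positive arrays, and most of it came from the Hmgb1 probe.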
